A study of Bos taurus with 4 samples.

Results

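The genes described here code for the proteins that hold cells to each other and to their surroundings: cadherins and protocadherins, claudins and junctional adhesion molecules (JAM), integrins, the immunoglobulin-type adhesion molecules ICAM, VCAM, NCAM and CADM, and the neurexins and neuroligins of synapses. They were taken by gene symbol from a bovine expression array, which gave 248 of the 51282 sample probes and 117 of the 32429 gene names on it. Sperm RNA of Murrah buffalo breeding bulls with a high field conception rate (2 pools) was compared with that of bulls with a low one (2 pools), each pool from 2 bulls, on 4 arrays of 1 slide. In the study's methods, high-fertile and low-fertile bulls lay at least 1 SD above or below the mean conception rate, and RNA was taken from gradient-selected spermatozoa. All were breeding males of 1 breed, and their ages are not given in the sources used here. The labels give the organism as cattle and the series title gives buffalo, and the probes are cattle sequences, so a base difference between buffalo RNA and a probe can lower its signal. Which bulls went into which pool is not given in the sources used here, and p-values measure the spread between pools only. Every difference below is the low-fertile mean minus the high-fertile mean, on the log2 scale of the array signal after the 75th percentile of its array was subtracted.

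Cadherins join neighbouring cells through calcium-dependent pairing of like molecules, and claudins seal the space between cells at tight junctions. Integrins are pairs of an alpha and a beta subunit that bind matrix proteins or, on leukocytes, ligands such as ICAM and VCAM. In the testis these proteins build the blood-testis barrier between Sertoli cells and hold germ cells to the epithelium, and a mature spermatozoon carries mRNA left over from its development while transcribing little itself. In bulk sperm RNA, fewer cells with a transcript and less of it per cell cannot be told apart.

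Several results turned on the exact stretch that a probe reads, so 60-base probe sequences are shown first, 5′ to 3′ as on the array, with positions on Btau_3.1 from the scanner files. One probe each of the leukocyte beta integrins ITGB7 (chr5:29751381-29751440, plus strand) and ITGB2 (chr1:146773996-146774055, plus strand) covers the codons of the metal ion-dependent adhesion site, the part of the beta subunit that holds the ion needed for ligand binding, and the 15 bases of these codons are in capitals. The codon pattern occurs on either strand of 2.11% of all probes on the array.
ITGB7: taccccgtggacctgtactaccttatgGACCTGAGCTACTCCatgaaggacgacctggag
ITGB2: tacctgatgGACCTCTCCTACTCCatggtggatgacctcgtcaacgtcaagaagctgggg
In the tight-junction gene CLDN3 the called probe (chr25:35569005-35569064, plus strand) runs through the paired cysteine codons of the first extracellular loop, given in capitals with the bases between them. This spacing of cysteine codons occurs on either strand of 8.17% of all probes.
CLDN3: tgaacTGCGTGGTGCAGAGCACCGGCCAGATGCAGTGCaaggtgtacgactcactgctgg
For NLGN3, a neuroligin that pairs with neurexins across the synapse, the first 30 bases of the called probe (chrX:49282519-49282578, minus strand) are set against the other tested probe (chrX:49284831-49284890, minus strand), with each CA in capitals.
NLGN3 called probe: agatcCACAaaaaCACAcgCACACAtgCAc
NLGN3 other probe: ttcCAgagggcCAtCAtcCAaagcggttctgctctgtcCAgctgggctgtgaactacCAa
The called NLGN3 probe holds 17 CA in its 60 bases and the other probe holds 6. Of the 51282 probes on the array, 1 holds 17 or more CA as written, and that is the called NLGN3 probe, while 5 (0.0098%) do so on either strand.
For the presynaptic neurexin NRXN3, a probe at chr10:93763301-93763360 (plus strand) is given, followed by a probe of the cadherin CDH18 (chr20:57306206-57306265, plus strand), as their differences were among the most negative.
NRXN3: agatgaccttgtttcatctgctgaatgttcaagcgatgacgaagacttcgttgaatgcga
CDH18: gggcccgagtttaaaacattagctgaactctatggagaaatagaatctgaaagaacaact
The NRXN3 probe contains 43.33% G and C and the CDH18 probe 38.33%, while the ITGB7 and ITGB2 probes contain 55% each and the CLDN3 probe 60%.

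The 4 arrays differed in how many spots rose above their background. High-fertile pools 1 and 2 had 119 and 120 of the 248 adhesion probes well above background, low-fertile pool 1 had 130 and low-fertile pool 2 had 65, and over the whole array these counts were 23271, 23228, 25642 and 13033. The array of low-fertile pool 2 also had the widest spread of its negative control spots (19.9 signal units, against 8.67 to 11.2 on the others). Each group filled a row of the slide by itself, so position and group cannot be told apart. Among the defining transcripts of sperm, PRM1, TNP1, ODF1, ACR and OAZ3 were well above background on all 4 arrays, but 18 of 29 sperm markers, PRM2, TNP2 and AKAP4 among them, were not tested because no probe rose clearly above background in both pools of a group. Of 21 leukocyte markers 17 were tested, PTPRC, LYZ and CD3D among them.

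Of the 117 adhesion genes, 71 had a probe that the scanner software marked as well above background in both pools of a group and were tested, each read from its brightest tested probe. Of these, 43 were measured on all 4 arrays and 27 on both high-fertile arrays but not on both low-fertile ones. The remaining 1 (CDH22) was measured on both low-fertile arrays but not on both high-fertile ones. At an adjusted p of 0.05 in limma, 12 genes were lower in low-fertile pools, 12 were higher and 47 did not pass. Over all 16685 genes tested in the same way, 16.6% were lower and 9.53% were higher. Because a gene admitted through the high-fertile pair alone had to be dim on a low-fertile array, shares are given for the 43 genes on all 4 arrays. Among them 3 were lower (6.98%, against 9.32% of the 10590 genes of the array measured likewise) and 12 were higher (27.9%, against 13.2%). The other 9 lower calls were among genes tested through the high-fertile pair alone, some of them also well above background in low-fertile pool 1. Of the genes tested in this way over the whole array, 30.3% were called lower and 1.36% higher. For these genes the filter itself favours a lower reading, so their p-values are given as values of the fit and not as support for a direction. The median difference was 0.23 over the 43 genes and 0.15 over the 10590, and over the 43 it was 0.08 after the base composition correction and -0.14 under spike-in scaling, both described below. Over the 71 genes the low-fertile pools both lay below both high-fertile pools in 27 genes and both above in 27, where 34.7% and 34.8% of all tested genes did so. Scaling by 7 spike-in probes instead of the 75th percentile moved the median of all tested genes from 0.01 to -0.36 and the adhesion calls to 25 lower and 3 higher (CDH20, ITGB7 and PCDH12), so that 89.3% of the adhesion calls and 91.5% of the calls over all genes were lower. Without high-fertile pool 1 there were 7 lower and 4 higher calls, without high-fertile pool 2 there were 6 and 3, and without low-fertile pool 2 there were 9 and 6. Of the 15 calls on all 4 arrays, 4 (CDH20, ITGB7, PCDH12 and NLGN3) passed with each of the 4 pools left out in turn, and 11 were lost at least once, with CADM3, CDH26, ITGA11, PCDH8 and PCDHA6 lost whichever pool was left out.

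**Figure D1:**
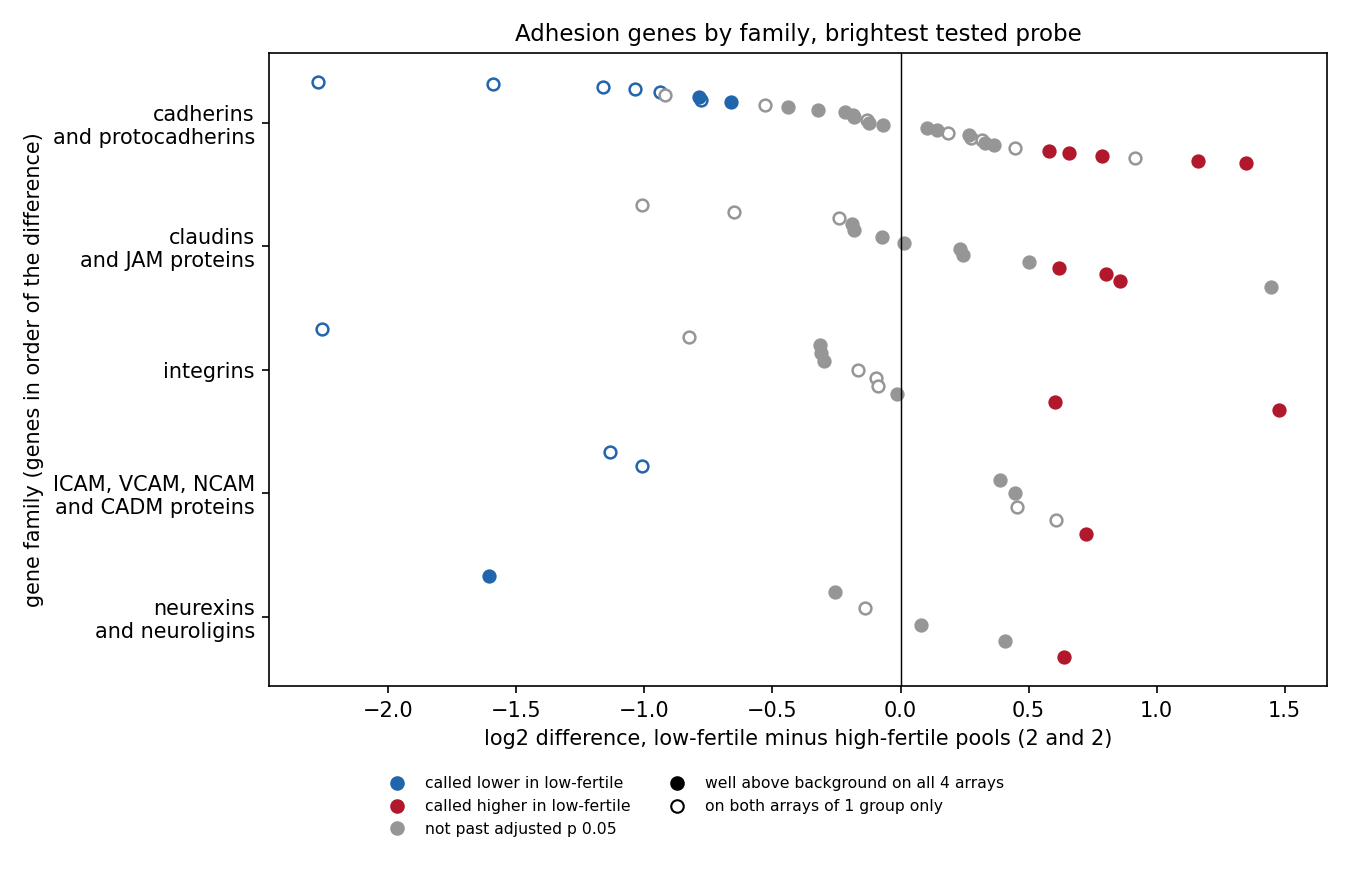
Each point is 1 of the 71 tested adhesion genes, placed by its log2 difference between low-fertile and high-fertile pools (horizontal axis, 2 pools each) within its family (vertical axis). Red and blue mark higher and lower calls in limma, filled points were well above background on all 4 arrays, and all 12 red points are filled while 9 of the 12 blue points are open.

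Cadherins and protocadherins made up 53 of the genes, and 33 of them were tested, with 8 lower and 5 higher calls (16.6% and 9.53% over all tested genes). On all 4 arrays 18 were measured, with 2 lower and 5 higher (9.32% and 13.2% over all genes measured likewise). The 13 calls of this family became 8 when high-fertile pool 1 was left out and 6 when high-fertile pool 2 was. The classical and other cadherins gave 5 lower and 1 higher call of 18 tested, and 2 lower and 1 higher of the 10 measured on all 4 arrays. The other 3 lower calls (CDH18, CDH12 and CDH6) were tested through the high-fertile pair alone, and 30.3% of all genes tested in this way were called lower. CDH12 and CDH6 were also well above background in low-fertile pool 1. The protocadherins of the clustered arrays gave 1 lower and 2 higher of 9 tested, and the non-clustered protocadherins 2 lower and 2 higher of 6 tested. On all 4 arrays these were 0 lower and 2 higher of 5, and 0 lower and 2 higher of 3. These counts are too small to set 1 group of cadherins against another, and that difference was not tested.

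CDH26, a cadherin known from epithelia, read 8.71 and 8.78 (high-fertile) and 8.02 and 8.15 (low-fertile). Both low-fertile pools were below both high-fertile pools. The difference was -0.66 (SE 0.15, limma adjusted p = 0.0257), and it was no longer negative after a correction for base composition (0.16, adjusted p = 0.465). It did not pass with any 1 pool left out (-0.73 to -0.60, adjusted p = 0.051 to 0.120) or for the median over its probes (-0.28, adjusted p = 0.412). CDH24, a type II cadherin that binds catenins, read 2.57 and 2.49 (high-fertile) and 1.67 and 1.81 (low-fertile). It was lower by 1.73-fold, with a difference of -0.79 (SE 0.15, limma adjusted p = 0.0155) and of -1.02 after that correction (adjusted p = 0.012).

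CDH20, a type II cadherin of neural crest and brain, was the only cadherin (CDH) gene called higher. It read -0.39 and 0.00 (high-fertile) and 1.28 and 1.03 (low-fertile), a 2.55-fold difference of 1.35 (SE 0.20, limma adjusted p = 0.00761). Its probe contains 76.67% G and C, the highest value among the called adhesion probes, and the call was kept after the base composition correction (1.04, adjusted p = 0.032).

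Of the type II cadherins on chromosome 20, mostly known from nerve cells, 3 were called lower, none of them well above background in both low-fertile pools. CDH18, tested through the high-fertile pair alone, read -0.25 and 0.44 there and was not well above background in either low-fertile pool. By the bound it was 4.84-fold lower (limma adjusted p = 0.00407), which is the fitted difference of -2.28 (SE 0.26) itself. The difference was -0.51 under normexp background correction, -1.49 for the median over its probes and -1.75 after the base composition correction. CDH12 read 1.12 and 1.29 (high-fertile) and -0.33 and -0.44 (low-fertile), with a difference of -1.59 (SE 0.15, limma adjusted p = 0.00296). CDH6, a kidney and neural cadherin on the same chromosome, had a difference of -0.78 (SE 0.15, limma adjusted p = 0.0182), and its spot lay on a bright patch of the array of low-fertile pool 1. A further cadherin of this chromosome, CDH9, had a difference of 0.28 and did not pass (adjusted p = 0.406), and CDH10, on this chromosome too, was not tested. CDH12, CDH6 and CDH9 are named here after their values were seen, and chromosome 20 as a group was noticed in the data and not tested.

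Cadherins of the testis and of vessels did not pass the test. CDH2, the N-cadherin of Sertoli and germ cell contacts, read -0.25 and -0.30 (high-fertile) and -0.16 and -0.10 (low-fertile), with a difference of 0.14 (limma adjusted p = 0.479). It turned to -0.23 under spike-in scaling and to -0.24 for the median of its probes, and it rose to 0.67 after the base composition correction (adjusted p = 0.028). CDH5, the cadherin of endothelium, differed by -0.18 (adjusted p = 0.451). CDH1, the E-cadherin of epithelia, had 3 probes, and none was well above background on any array.

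Among the protocadherins, PCDH12, which is expressed in vascular endothelium, was called higher. It read 0.38 and 0.20 (high-fertile) and 1.44 and 1.47 (low-fertile), a 2.24-fold difference of 1.16 (SE 0.15, limma adjusted p = 0.00547), and remained called after base composition correction (0.93, adjusted p = 0.015). The low-fertile pools were above the high-fertile pools by far more than either pair differed. Of 10 endothelial markers 6 were tested, and 2 of them were called higher (TIE1 by 1.31 and EGFL7 by 0.63), where 9.53% of all tested genes were. The other 4 did not pass, with VWF at 0.43, ROBO4 at 0.15, PLVAP at 0.14 and KDR at -0.28. The summed level of the 10 markers was 10.9 to 12.9 times the 75th percentile in the high-fertile pools and 16.2 to 16.3 times in the low-fertile pools. PECAM1, CD34, TEK and EMCN were not tested, and the part of endothelial RNA in the PCDH12 result was not tested.

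The clustered protocadherins, which give single neurons their surface identity, lie side by side on chromosome 7. PCDHGB2 read 0.56 and 0.35 (high-fertile) and 1.21 and 1.28 (low-fertile), a difference of 0.79 (SE 0.15, limma adjusted p = 0.0177). It did not pass under spike-in scaling (0.42, adjusted p = 0.081). The call was among those lost at least once with 1 pool left out (0.68 to 0.89). PCDHA6 differed by 0.66 (SE 0.14, adjusted p = 0.0237), but did not pass after the base composition correction (0.43, adjusted p = 0.081) or under spike-in scaling (0.29, adjusted p = 0.141). Another probe of the array that shares at least 30 bases with the PCDHA6 probe gave 0.33. PCDHGA4, of the same gamma cluster as PCDHGB2, was tested through the high-fertile pair alone. It was 2.05-fold lower by the bound (limma adjusted p = 0.00843), while the median over its probes was -0.23 (adjusted p = 0.366). PCDHGB4 had 3 tested probes, of which the brightest did not pass (-0.07), and the probe at chr7:51903482-51903541 was called higher (0.63, adjusted p = 0.0288). Each gamma gene has its own first exon and shares the last exons with its neighbours, so probes of 1 symbol in this cluster can read different transcripts.

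The non-clustered protocadherins were called in both directions. The genes called lower, PCDH19 and PCDH9, were tested through the high-fertile pair alone, where the filter favours a lower reading. PCDH19, on the X chromosome, read 0.84 and 0.99 (high-fertile) and -0.15 and -0.35 (low-fertile), with a difference of -1.16 (SE 0.16, limma adjusted p = 0.00642). PCDH9 differed by -0.94 (SE 0.17, adjusted p = 0.0138), and in low-fertile pool 2 neither gene rose clearly above background. PCDH8 was called higher by 0.58 (SE 0.16, adjusted p = 0.0457), but its other tested probe gave -0.33 (adjusted p = 0.232) and the median over its probes was -0.33. The PCDH8 call was also lost after the base composition correction (0.27, adjusted p = 0.259), under spike-in scaling (0.21, adjusted p = 0.372), with the replicate block (adjusted p = 0.059) and with any 1 pool left out (0.49 to 0.67, adjusted p = 0.077 to 0.196). PCDH17 did not pass by its brightest probe (-0.53, adjusted p = 0.0537), and its second probe was 4.97-fold lower by the bound (adjusted p = 0.00221).

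**Figure D2:**
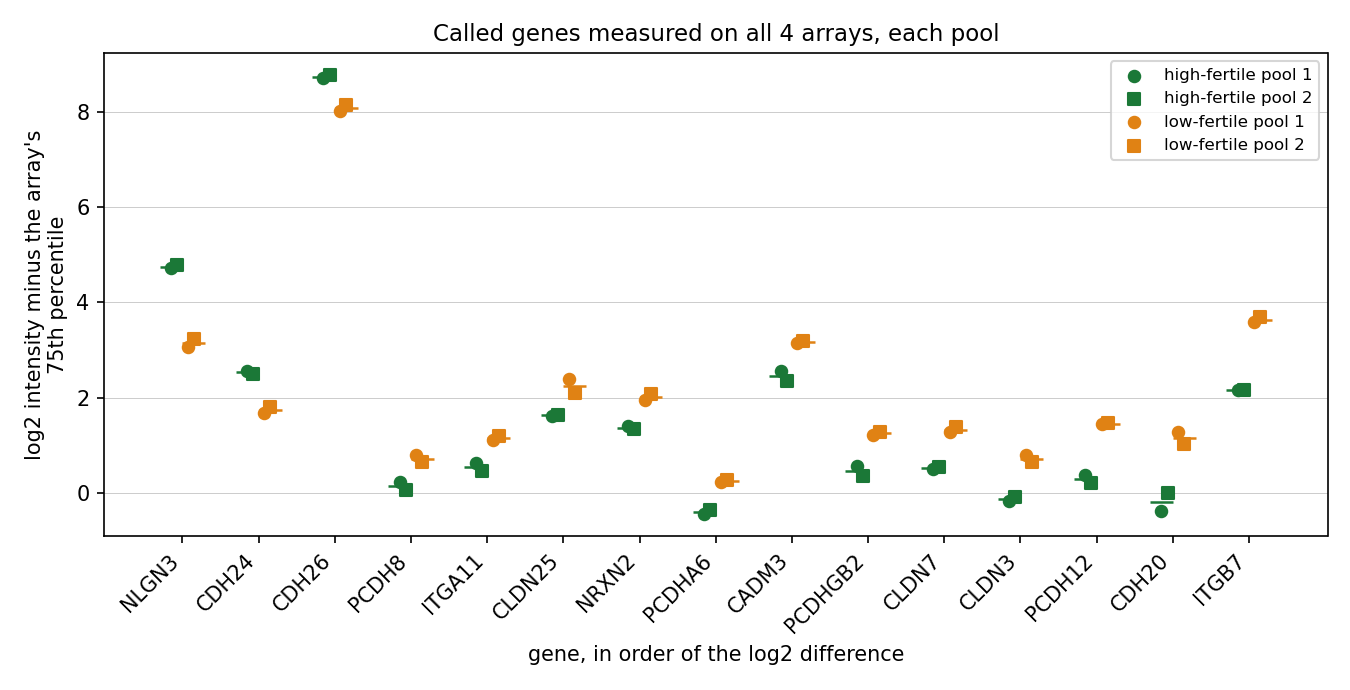
The log2 intensity relative to the 75th percentile of the array (vertical axis) is given for each pool (green, high-fertile; orange, low-fertile; circle, pool 1; square, pool 2) and each of the 15 called genes measured on all 4 arrays (horizontal axis), with group means as short lines. In all 15 genes the pools of the groups are apart, and 12 genes are higher and 3 (NLGN3, CDH24 and CDH26) are lower in low-fertile pools. Levels of different genes come from different probes and are not to be set against each other.

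Claudins and JAM proteins comprised 24 genes, of which 14 were tested, and 3 claudins were called higher with no gene called lower, against 9.53% higher and 16.6% lower over all tested genes. On all 4 arrays, 8 of 11 had a positive difference, with a median of 0.24 (0.15 over all genes measured likewise). Under spike-in scaling 5 of 11 did, with a median of -0.13. The 3 calls of this family under that scaling were all lower, F11R among them. Without high-fertile pool 1 or 2 no gene of this family was called, without low-fertile pool 1 there were 5 calls, and after the base composition correction 1 was (CLDN7). CLDN3, a claudin of the Sertoli cell barrier and of epithelia, read -0.18 and -0.10 (high-fertile) and 0.79 and 0.64 (low-fertile). The groups did not overlap, and the difference was 0.86 (SE 0.15, limma adjusted p = 0.0125, 1.81-fold). CLDN3 did not pass under normexp background correction (0.26, adjusted p = 0.057) or spike-in scaling (0.48, adjusted p = 0.076). Its other probe, further along the plus strand at chr25:35569274-35569333, gave 0.52 (adjusted p = 0.0556).

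CLDN7, an epithelial claudin, read 0.50 and 0.55 (high-fertile) and 1.28 and 1.37 (low-fertile), a difference of 0.80 (SE 0.14, limma adjusted p = 0.0133). It did not pass under spike-in scaling (0.43, adjusted p = 0.053). The call was among those lost at least once with 1 pool left out (0.76 to 0.85). CLDN25 differed by 0.62 (SE 0.16, adjusted p = 0.0424), and another probe of the array that shares at least 30 bases with its probe gave 0.37. It did not pass under normexp background correction (0.31, adjusted p = 0.085) or spike-in scaling (0.25, adjusted p = 0.341). The CLDN25 call was also lost with the replicate block (adjusted p = 0.057) and after the base composition correction (adjusted p = 0.097). Quantile normalization, the percentile over detected probes and the median over probes lost it too (adjusted p = 0.061 to 0.070). CLDN4, also epithelial, reached 0.50 and did not pass (adjusted p = 0.0524). Of 13 epithelial markers, 11 were tested (KRT7 and EPCAM were not) and none was called in either direction. Their summed level was 38.6 to 41.0 times the 75th percentile in the high-fertile pools and 39.8 to 44.5 times in the low-fertile pools.

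CLDN5, the claudin of vessel walls that Sertoli and germ cells also express, spread widely between the pools of a group. Its brightest probe read 2.50 and 1.67 (high-fertile) and 2.92 and 4.15 (low-fertile pools 1 and 2). The groups were apart, but the low-fertile pools differed from each other by more than the lower of them did from high-fertile pool 1. The difference of 1.45 (SE 0.47) did not pass (limma adjusted p = 0.0728). It passed with the filter on all 4 arrays (adjusted p = 0.031). The difference was 2.06 without low-fertile pool 1 and 0.83 without low-fertile pool 2. This probe contains 78.33% G and C. Its other tested probes overlap each other on chromosome 17 and were called higher, by 0.67 and 0.60 (adjusted p = 0.034 and 0.0365), so they are not independent of each other.

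The JAM proteins, which sit at tight junctions and attach spermatids to Sertoli cells, gave no call in the reported analysis. JAM3 read -0.29 and 0.03 (high-fertile) and -0.62 and -1.66 (low-fertile pools 1 and 2), and its difference of -1.01 (SE 0.36) did not pass (limma adjusted p = 0.0908). In low-fertile pool 2 it did not rise clearly above background, so it was tested through the high-fertile pair alone. The difference was -1.53 without low-fertile pool 1 (adjusted p = 0.011), which leaves that dim reading as its only low-fertile value, and -0.49 without low-fertile pool 2 (adjusted p = 0.183). F11R, the gene of JAM-A, differed by -0.18 (adjusted p = 0.494), and the sign turned for the median of its probes (0.15). Under spike-in scaling F11R was called lower (-0.55, adjusted p = 0.045). JAM2 had 1 probe, which read -0.90 and -1.49 (high-fertile) and -1.37 and 3.02 (low-fertile pools 1 and 2). The spot behind the value of 3.02 lay on a bright patch of its array, and JAM2 was not tested. CLDN11, the claudin of Sertoli cell tight junctions, rose clearly above background on no array.

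Integrins and proteins named for binding them made up 23 genes, of which 11 were tested, with 1 lower and 2 higher calls, against 16.6% and 9.53% over all tested genes. ITGB7, the beta subunit of the gut-homing integrins of lymphocytes, was called higher. Its brightest probe read 2.16 and 2.15 (high-fertile) and 3.59 and 3.69 (low-fertile), a 2.79-fold difference of 1.48 (SE 0.14, limma adjusted p = 0.00303). The pools within each group lay close together, and the call was kept after the base composition correction (1.25, adjusted p = 0.009). The probe over the adhesion site, whose sequence is given above, was also called higher (0.73, adjusted p = 0.0282), whereas the ITGB7 probe with the wider coordinates chr5:29753968-29755023 gave -0.25 (adjusted p = 0.352).

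ITGB2, the common beta subunit of leukocyte integrins, had 5 tested probes that did not move together. The adhesion site probe read -0.67 and -0.38 (high-fertile) and 0.34 and 0.37 (low-fertile), a difference of 0.89 (SE 0.16, limma adjusted p = 0.0152). A second probe, at chr1:146781070-146781129, was called higher as well (0.92, adjusted p = 0.0387). The brightest probe, at the 3′ side of the gene, gave -0.09 (adjusted p = 0.833), the probe that overlaps it gave -0.44 and the remaining probe 0.03. The alpha partners of ITGB2 carry letters in place of numbers and fall outside the symbol rule. Of 5 lettered alpha genes on the array, 4 were tested and none was called (ITGAL 0.04, ITGAM 0.14, ITGAD -0.09, and ITGAV, which pairs with other beta subunits, 0.26). ITGAE and the numbered ITGA4 were not tested. Leukocyte markers gave 1 lower (CD3D, -1.05) and 1 higher call (PTPRC, 0.78) among 17 tested of 21 (CD3E, CORO1A, S100A9 and AIF1 were not tested), where 16.6% and 9.53% of all tested genes were called. Their summed level was 727 to 749 times the 75th percentile in the high-fertile pools and 863 to 960 times in the low-fertile pools. Most of this sum came from the bright probes of PTPRC, CD3D and LYZ (0.38, limma adjusted p = 0.117), which did not move together. The sperm markers summed to 45.7 to 49.7 times (high-fertile) and 45.2 to 48.4 times (low-fertile). These sums come from different probes, so the lists are not to be set against each other. The part of leukocyte RNA in the ITGB7 and ITGB2 results was not tested.

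ITGA11, a collagen receptor subunit of fibroblasts, read 0.62 and 0.46 (high-fertile) and 1.11 and 1.19 (low-fertile), a difference of 0.60 (SE 0.15, limma adjusted p = 0.0354). It did not pass after the base composition correction (0.37, adjusted p = 0.115) or under spike-in scaling (0.23, adjusted p = 0.224). The ITGA11 call was also lost with the replicate block (adjusted p = 0.058) and with any 1 pool left out (0.53 to 0.68). The other integrin subunits did not pass. ITGB1, the partner of most alpha subunits, read 0.62 and 0.21 (high-fertile) and -0.11 and -0.70 (low-fertile), with a difference of -0.82 (SE 0.26, adjusted p = 0.0658). In low-fertile pool 2 it did not rise clearly above background, so it was tested through the high-fertile pair alone. Its side of the threshold changed with the setting: it passed under spike-in scaling (-1.20, adjusted p = 0.044), with the replicate block (adjusted p = 0.022), with bright patches left out (adjusted p = 0.0497) and for the median over its probes (-0.97, adjusted p = 0.019), and not under normexp background correction (-0.25, adjusted p = 0.075) or after the base composition correction (-0.57, adjusted p = 0.184). Without low-fertile pool 1 it was -1.12 (adjusted p = 0.032), without low-fertile pool 2 -0.53 (adjusted p = 0.187) and without high-fertile pool 1 -0.62 (adjusted p = 0.234). ITGA5, the fibronectin receptor subunit, differed by -0.01 (adjusted p = 0.958). ITGB4, the subunit of hemidesmosomes, differed by -0.17 by its brightest probe (adjusted p = 0.602) and by 0.88 by the other tested one (adjusted p = 0.0536). ITGA6, its partner and a laminin receptor known from sperm and germline stem cells, was not tested, with a probe well above background on 1 array of each group.

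The lower call of this family, ITGB3BP, is no integrin: the symbol stands for a protein first found by its binding to a beta subunit and known as a centromere protein. Tested through the high-fertile pair alone, it read 1.11 and 1.06 there and was 4.79-fold lower by the bound (limma adjusted p = 0.00316). The median over its probes did not pass (adjusted p = 0.084). Likewise ITGB1BP3, not tested, is now named NMRK2, a nicotinamide riboside kinase. Without the 4 genes of this kind, 11 of 70 tested adhesion genes were lower and 12 higher, against 16.6% and 9.53% over all tested genes.

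The immunoglobulin-type adhesion molecules numbered 10 genes, of which 7 were tested, with 2 lower calls and 1 higher (16.6% and 9.53% over all tested genes). CADM3, which joins nerve cells, read 2.55 and 2.34 (high-fertile) and 3.15 and 3.19 (low-fertile), a difference of 0.72 (SE 0.15, limma adjusted p = 0.0224). It did not pass under spike-in scaling (0.35, adjusted p = 0.121) or with any 1 pool left out (0.62 to 0.83, adjusted p = 0.052 to 0.117). A second probe that overlaps the first gave 0.97 (adjusted p = 0.0197), and the remaining probe, whose coordinates span 2484 bases, gave 0.04 (adjusted p = 0.892). CADM1, which anchors spermatogenic cells to Sertoli cells, was not well above background in either low-fertile pool. It read -0.92 and -0.33 in the high-fertile pools and was 2.01-fold lower by the bound (limma adjusted p = 0.0481), and it was tested through the high-fertile pair alone. It did not pass after the base composition correction (-0.48, adjusted p = 0.27), for the median over its probes (-0.54, adjusted p = 0.151), under normexp background correction (-0.22, adjusted p = 0.062) or under 3 other settings, namely the percentile over detected probes, quantile normalization and the deposited table (adjusted p = 0.058 to 0.097).

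NCAM1, the neural cell adhesion molecule that early germ cells and Sertoli cells also carry, read 0.18 and 0.43 (high-fertile) and -0.44 and -1.22 (low-fertile pools 1 and 2), and in low-fertile pool 2 it did not rise clearly above background. Its difference was -1.14 (SE 0.28, limma adjusted p = 0.0369), and its other tested probe gave -0.61 (adjusted p = 0.316). ICAM1, ICAM4, ICAM5 and VCAM1, ligands of leukocyte integrins, had differences of 0.39 to 0.61 in the same direction. None of these 4 passed the test, with ICAM1 nearest (adjusted p = 0.0644), and by the brightest probe both low-fertile pools were above both high-fertile pools in each, as in 34.8% of all tested genes. The other tested probe of ICAM1 gave -0.19 and that of VCAM1 -0.08. Without high-fertile pool 1, high-fertile pool 2 or low-fertile pool 2, no gene of this family was called.

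Neurexins and neuroligins were the smallest family, with 7 genes, 6 tested, 1 lower call and 1 higher (16.6% and 9.53% over all tested genes), and without high-fertile pool 1, high-fertile pool 2 or low-fertile pool 2 only 1 call was left. NLGN3 read 4.73 and 4.78 (high-fertile) and 3.05 and 3.24 (low-fertile). The low-fertile pools were both far below the high-fertile pools, by 1.61 on average (SE 0.15, limma adjusted p = 0.00293, 3.04-fold lower), and the call was kept after the base composition correction (-1.52, adjusted p = 0.008). This reading came from the CA-rich probe shown above. The other NLGN3 probe read 0.04 and -0.08 (high-fertile) and 0.18 and 0.00 (low-fertile), with a difference of 0.11 (adjusted p = 0.609). The part of the CA repeat in the NLGN3 signal was not tested.

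NRXN2 was called higher by 0.64 (SE 0.14, limma adjusted p = 0.0283), and its other tested probe gave 0.01. It did not pass under normexp background correction (0.013, adjusted p = 0.945), after the base composition correction (0.41, adjusted p = 0.089) or under spike-in scaling (0.27, adjusted p = 0.148). NRXN3 gave different readings along the gene: the probe shown above, on the 5′ side, was at least 3.92-fold lower (limma adjusted p = 0.00713), and the probe further 3′ gave 0.08 (adjusted p = 0.704). NLGN2 differed by -0.26 by its brightest probe (adjusted p = 0.28), and its other probes were called higher, by 0.61 and 0.71 (adjusted p = 0.0359 and 0.0347).

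**Figure D3:**
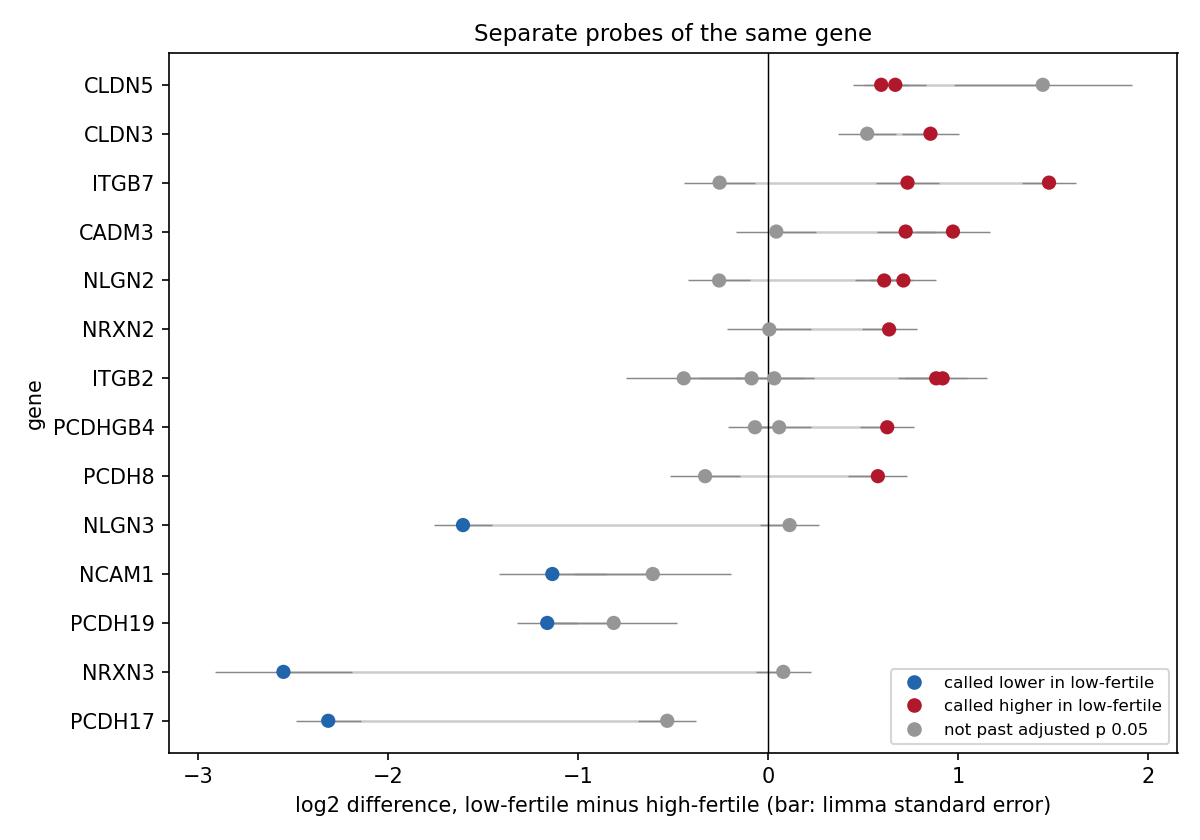
Each row is 1 of 14 adhesion genes with at least 2 tested probes and at least 1 call, and each point is a probe, placed by its log2 difference between low-fertile and high-fertile pools (horizontal axis) with the limma standard error as a bar. Red and blue points were called higher and lower, grey points did not pass, and in no gene were all tested probes called.

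Separate probes of the same gene thus gave different readings in many adhesion genes. Of 29 genes with at least 2 tested probes, 16 had probes of both signs. In 15 of the 29 at least 1 probe was called, in none of these were all tested probes called, and in 0 were probes called in both directions. In 7 genes the brightest probe did not pass while another probe did. Over the 110 tested probes, 16 were called lower and 21 higher, against 17.6% and 9.22% of the 21033 tested probes of the array. The labelling started from oligo-dT primers, per the labels, and the coordinates of 35 of the 248 probes spanned 137 to 48497 bases of the genome. Exons and introns were not assigned.

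Base composition moved with the direction of the difference. Probes called lower held a median of 44.17% G and C, those called higher 55%, those that did not pass 48.33%, and the 138 untested probes 41.67%. Across the 110 tested adhesion probes, which share the same 4 arrays, Pearson's r between the percentage of G and C and the difference was 0.66, and across the 21033 tested probes of the array it was 0.44. Over the whole array the medians were 41.67% for lower and 55% for higher calls. With the trend on G and C taken out of each array, a correction chosen after the data were seen, 9 adhesion genes were lower and 7 higher, and lower calls made up 56.25% of the adhesion calls and 56.3% of those over all genes. The part of base composition in the single results was not tested beyond those corrected values.

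**Figure D4:**
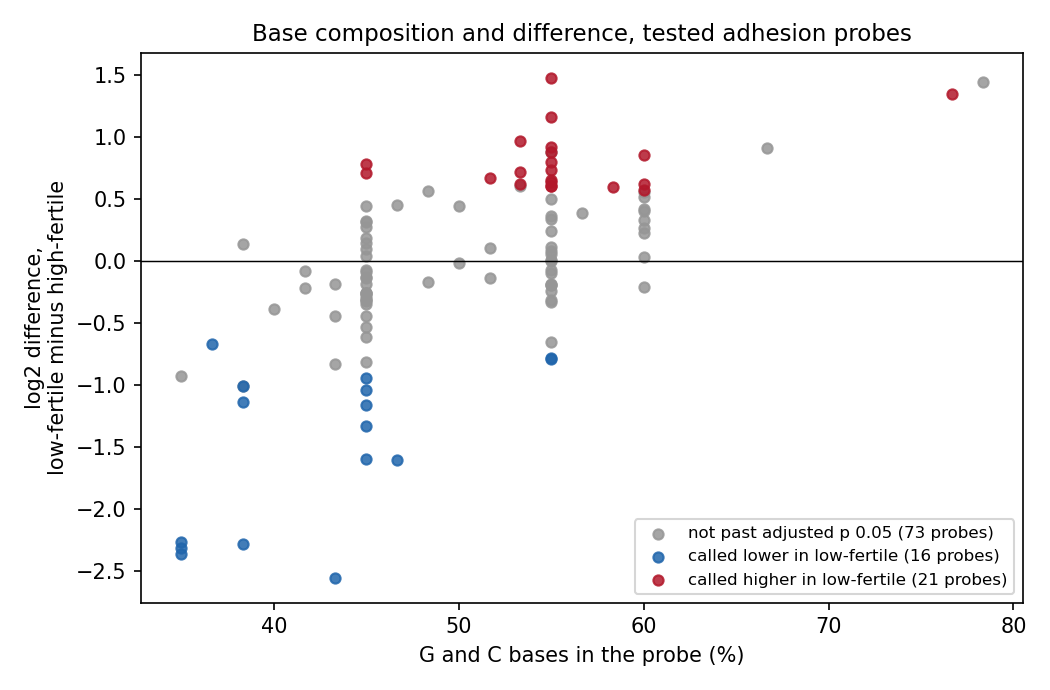
Each point is 1 of the 110 tested adhesion probes, placed by its percentage of G and C bases (horizontal axis) and its log2 difference between low-fertile and high-fertile pools (vertical axis). Blue marks the 16 probes called lower and red the 21 called higher, and the called-lower probes lie at 35% to 55% and the called-higher probes at 45% to 76.67%.

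Partner genes were read from lists drawn up by function, and their counts of calls are to be read against the 16.6% lower and 9.53% higher over all tested genes. Of all genes tested through the high-fertile pair alone, 30.3% were called lower. The lower calls of CTNNA3, DSG4, FYN, PTK2 and CNTN6 below are of this kind, and the filter itself favours that direction. Of 19 partners at adherens junctions, which tie cadherins to actin, 10 were tested, with 2 lower and 0 higher calls, and the median difference was -0.42 over the 10 and 0.21 over the 5 measured on all 4 arrays. Vinculin (VCL), which links junctions and integrins to actin, read 2.11 and 2.32 (high-fertile) and -0.11 and 0.02 (low-fertile), with a difference of -2.26 (SE 0.16, limma adjusted p = 0.002). The alpha-T-catenin gene CTNNA3 read -0.89 and -0.92 in the high-fertile pools, was not well above background in either low-fertile pool and was at least 2.44-fold lower (limma adjusted p = 0.009). Of 14 desmosome genes 7 were tested, with the desmoglein DSG4 lower (-1.37, not well above background in low-fertile pool 2) and the plakophilin PKP1 higher (0.81). Of 20 tight junction scaffold genes 12 were tested, with 0 lower and 2 higher calls, TJP1 (ZO-1, 0.52) and MPP5 (PALS1, 1.06), and the median was 0.18 over the 12 and 0.35 over the 10 measured on all 4 arrays.

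Of 26 focal adhesion partners, which act inside the cell below integrins, 18 were tested, with 2 lower and 3 higher calls. The kinases FYN (-1.68) and PTK2 (FAK, -1.03) were lower and did not rise clearly above background in low-fertile pool 2, whereas the talin gene TLN1 (1.15), the filamin-binding FBLIM1 (0.67) and the kinase SRC (0.53) were higher. Of 31 matrix ligands 24 were tested, and the calls were the laminin chains LAMA4 (-0.67) and LAMA5 (0.66). Of 23 synaptic partners 9 were tested, with 2 lower and 0 higher calls. LRRTM1, a postsynaptic partner of neurexins, differed by -1.06. CNTN6, not well above background in either low-fertile pool, was 2.13-fold lower by the bound (limma adjusted p = 0.0176). For comparison with these lists, the median was 0.01 over all 16685 tested genes and 0.15 over the 10590 on all 4 arrays. It was -0.35 over the 5878 tested through the high-fertile pair alone.

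Of the 46 adhesion genes that were not tested, 30 had no probe well above background on any array and 16 had a probe above it on 1 to 3 arrays. They comprised 5 cadherins, 15 protocadherins, 9 claudins, 1 JAM gene, 6 integrin alpha and 3 beta subunits, 3 genes named for integrin binding, 1 ICAM, 1 NCAM, 1 CADM and 1 neuroligin gene. A dim probe says only that its signal did not rise above the background of these arrays.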

How the data were processed

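Sperm RNA of 2 high-fertile and 2 low-fertile pools was labelled with 1 dye and hybridized to a bovine array. The authors used Feature Extraction 11.5.1.1 to read the images and deposited scanner intensity values per spot, with the background subtracted, and a table of log2 values shifted by the 75th percentile of each array in GeneSpring GX 12.6, which served as an alternative. From the deposited intensity, spots marked as outliers were dropped, repeated spots were averaged on the log2 scale, and the 75th percentile of the array was taken off (Python 3.11.15, pandas 2.3.3, numpy 2.4.6). Probes marked as well above background in both pools of a group, 21033 in all, entered limma 3.58.1 (R 4.3.3), and p-values were adjusted over them by Benjamini-Hochberg, after the script was tested on simulated data. The fit's prior carried 3.52 degrees of freedom. Each gene was read from its tested probe with the highest mean signal.

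Members and lists were chosen with earlier results of these data known. Named genes were the called genes measured on all 4 arrays, called genes with a bound, the brightest member of each family in each group, members of the study's pathways and members known from testis. Others named with values were chosen after their values were seen. A bound set the brighter mean against the higher of the dim probe's own signal and the lowest signal well above background on that array. For CDH18, PCDHGA4, ITGB3BP, CADM1, CNTN6 and the second PCDH17 probe, the dim probe's own signal was the higher. Their bound is thus the fitted difference, an estimate and not a sure minimum. Markers of Sertoli and Leydig cells (13 genes, 12 tested) gave 0 lower and 1 higher call (STAR, 0.79), those of red cells (9 genes, 5 tested) 0 and 1 (HBB, 1.24, tested through the low-fertile pair), and those of sperm 0 and 1 (PRM1, 0.67) of 11 tested. By RefSeq accession, 84 of the 117 genes matched a current symbol, 83 of them the same one. A probe labelled VCAM1 matched the current symbol LOC534578 in this way, and the symbol of the array was kept. The summed level of a list adds the linear values of the brightest probe of each of its genes on the array, tested or not. The pool numbers did not pair the samples (r = 0.0055 between same-numbered deviations over tested probes). With 2 pools a group, the smallest two-sided p of an exact permutation test is 0.333, and precision is limited by the 4 arrays. Values of 1 gene are not reported here by name, though it is in the counts.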

Additional observations from a re-analysis of the deposited data

How the results depend on the processing

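Calls (lower and higher) were 12 and 12 in the reported analysis and stayed within 1.5 times under normexp background correction (13 and 13), the 75th percentile over detected probes (10 and 11), quantile normalization (12 and 12), outlier spots kept (12 and 12), bright patches left out (15 and 14), the deposited table (11 and 11) and the replicate block (14 and 10, with 21 genes called in both fits). The pool numbers were only numbers, so the block is not a paired analysis. Spike-in scaling gave 25 and 3 (integrins 5), the filter on all 4 arrays 3 lower (cadherins and protocadherins 7, claudins and JAM 5, ICAM group 1), the median over probes 7 lower (cadherins and protocadherins 8, ICAM group 1) and the GC correction 7 higher (claudins and JAM 1, ICAM group 1, neurexins and neuroligins 1). Normexp left 1 neurexin or neuroligin call, and the percentile over detected probes 1 in the ICAM group. Without a filter limma called 0 genes in every family (30 at an unadjusted p under 0.05), and the methods' t-test after adjustment called 0 (27 unadjusted, 9 with the fold threshold as well). Leaving out 1 pool gave 6 to 14 lower and 3 to 8 higher calls, with 6 to 10 in cadherins and protocadherins, 0 to 5 in claudins and JAM, 2 to 3 in integrins, 0 to 2 in the ICAM group and 1 to 2 in neurexins and neuroligins. The lone pool is then assumed to vary like the other group. Signs turned for ITGB4 (normexp 0.0034, deposited values 0.0039, median over probes 0.665, leaving out 1 pool -0.43 to 0.10), ITGA5 (percentile over detected probes 0.021, median over probes 0.093, leaving out 1 pool -0.12 to 0.095), CDH2 (spike-in -0.23, median over probes -0.24), ITGB2 (filter on all 4 arrays 0.885, median over probes 0.43, leaving out 1 pool -0.39 to 0.22, GC correction 0.00012), F11R (median over probes 0.15, leaving out 1 pool -0.37 to 0.014, GC correction 0.078), PCDH8 (median over probes -0.33) and CDH26 (GC correction 0.16). ITGB2 under the filter on all 4 arrays is read from another probe. The cause of the other changes was not tested. Low-fertile pool 2 had 25.4% of all probes well above background, which limits what can be read of dim genes.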
